A study of Mus musculus with 6 samples.

Results

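The ribosome biogenesis genes described here are 37 listed genes for nucleolar factors that make, trim, modify or assemble ribosomal RNA, and for RNA polymerase I subunits. All 37 were measured, out of 18193 genes that had a probe set (a patch of probes on the array) assigned to that gene alone. Where a gene had several probe sets, the brightest by mean log2 value across the 6 arrays stood for it. The livers came from male FRG mice, which lack Fah, Rag2 and Il2rg in every cell and therefore cannot complete tyrosine breakdown and have no mature lymphocytes. In 3 FRG-7dNTBC mice, nitisinone (NTBC), the drug that blocks an upstream step of tyrosine breakdown and so keeps toxic intermediates from forming, was stopped for 7 days from the age of 11 weeks. In 3 FRG+NTBC mice it was given throughout at 16 mg/L in the drinking water, and all mice were sampled at 12 weeks on a chow low in tyrosine and phenylalanine. Whole liver RNA of each mouse went onto 1 Affymetrix mouse genome array. Both groups carry the same 3 knockouts, and livers with intact Fah are not part of the comparison.

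Ribosomes are built in the nucleolus. RNA polymerase I transcribes a long precursor RNA, small nucleolar ribonucleoproteins (snoRNPs) modify its bases and sugars, and separate sets of assembly factors then fold and cut it into the small and the large ribosomal subunit before export to the cytoplasm. Many of these factors are known targets of the transcription factor MYC, and in rodent liver the pathway is known to be active when hepatocytes prepare to grow or divide.

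After NTBC withdrawal, 28 of the 37 ribosome biogenesis genes were higher at a limma adjusted p under 0.05, 0 were lower and 9 did not pass. That is 75.7% of the members, against 17.4% of all 18193 genes called higher and 12.7% called lower. Among the 11583 genes at or above an intensity of 35.3, the median of all probe sets, 25.2% were higher, and all 37 members lay above that intensity. At an unadjusted p under 0.05, 29 members were higher and 0 lower. At least a 2-fold rise was found for 15 members, a combination met by 8.94% of all genes. In 29 members (78.4%) every FRG-7dNTBC liver lay above every FRG+NTBC liver, which was the case for 22.8% of all genes.

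The shift was of similar size in each mouse. The median log2 distance of the 37 members from their FRG+NTBC mean was 0.90, 0.92 and 0.95 in FRG-7dNTBC mice 1, 2 and 3, against 0.06, -0.05 and 0.04 in FRG+NTBC mice 1, 2 and 3. Of the 37 members, 33, 33 and 36 lay above the FRG+NTBC mean in the FRG-7dNTBC mice. The median log2 fold change over the members was 0.92, against -0.05 over all genes. No single mouse carried the rise, since the highest value among the FRG-7dNTBC livers fell in mouse 1 for 5, in mouse 2 for 11 and in mouse 3 for 12 of the 28 members that rose. RNA from whole liver cannot tell more transcript per cell from a larger share of the cells that hold it.

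**Figure D1:**
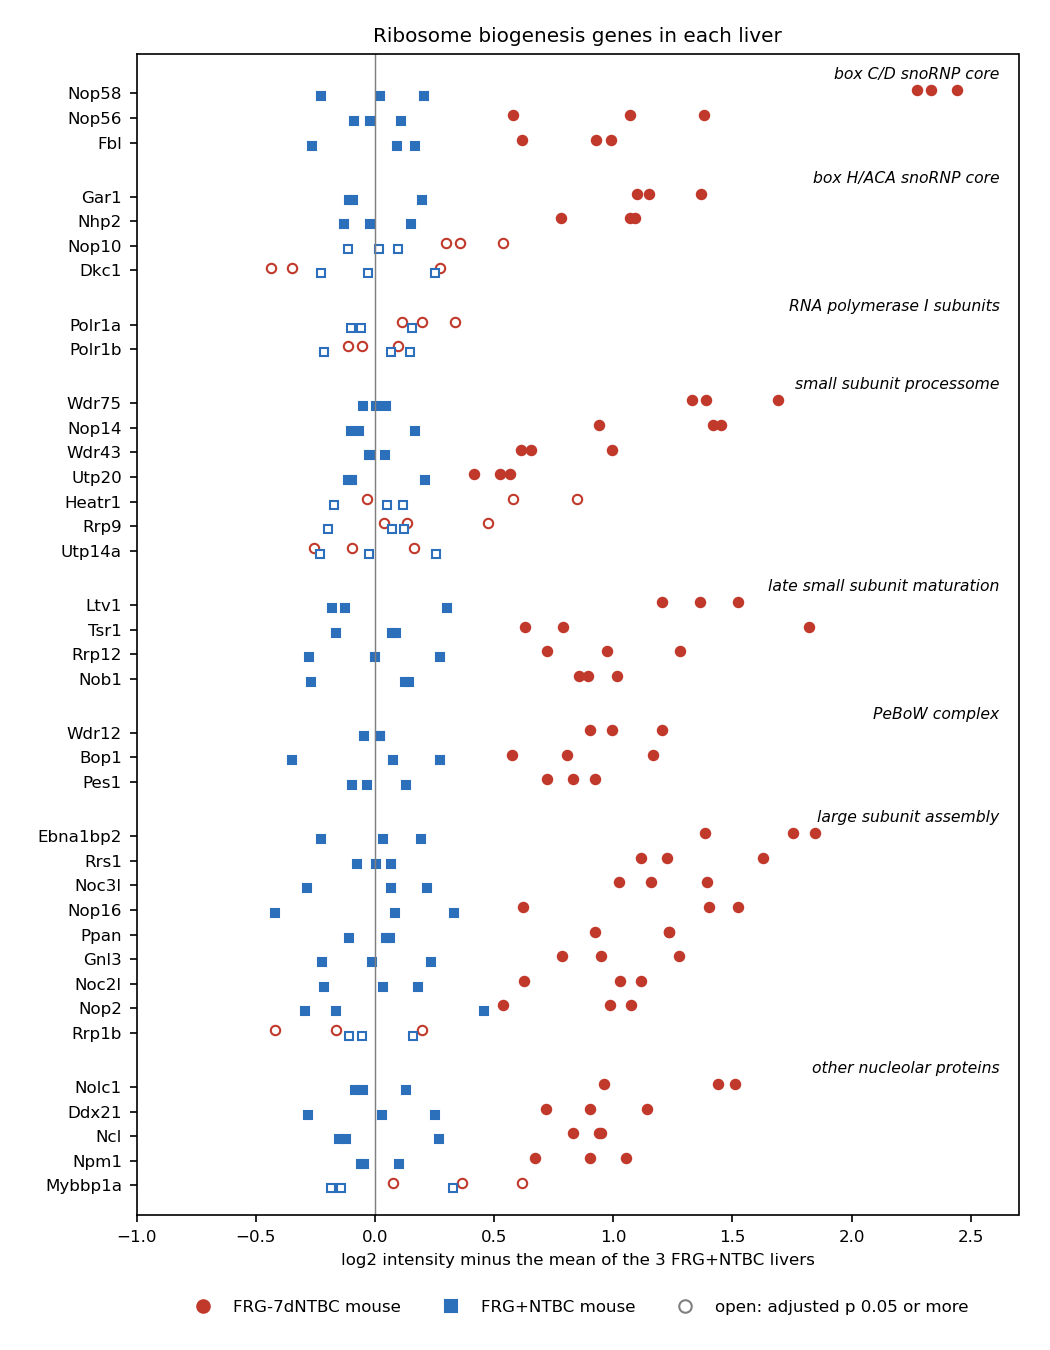
Log2 intensity of the 37 ribosome biogenesis genes minus the mean of the 3 FRG+NTBC livers (x axis), 1 row per gene in groups by role. Red circles are the 3 FRG-7dNTBC mice and blue squares the 3 FRG+NTBC mice, filled for the 28 genes with an adjusted p under 0.05 and open for the other 9, and Nop58 stands furthest to the right at a log2 fold change of 2.35.

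Box C/D snoRNPs guide the methylation of ribose in ribosomal RNA, and all 3 of their core proteins on the list rose. Nop58, one of the paired scaffold proteins, had intensities of 962, 923 and 1038 in the FRG-7dNTBC livers, against 220, 163 and 194 in the FRG+NTBC livers. The groups lay far apart, and the rise was 5.1-fold (log2 fold change 2.35 ± 0.14, SE, adjusted p = 5.43e-05), the largest among the 37 members. Nop56, its partner scaffold, had 898, 639 and 1113 in FRG-7dNTBC livers, against 461, 422 and 402 in FRG+NTBC livers. That rise was 2.01-fold (log2 1.01 ± 0.20, adjusted p = 0.00747). Fbl, fibrillarin, the methyltransferase of the particle, reached 798, 765 and 617 after withdrawal, against 452, 335 and 428 under NTBC. It rose 1.8-fold (log2 0.85 ± 0.16, adjusted p = 0.00667), with no overlap between the groups.

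Nop58 and Polr1b mark the ends of the range, with the largest and the smallest absolute change among members. Their promoters are shown for that reason, as the 150 bases before the annotated start of transcription, from RefSeq on GRCm38.p6. Capitals mark the letters GGGCGG, the GC box bound by SP1. The Nop58 stretch is chr1:59684856-59685005 and the Polr1b stretch chr2:129100846-129100995, both on the plus strand.
Nop58: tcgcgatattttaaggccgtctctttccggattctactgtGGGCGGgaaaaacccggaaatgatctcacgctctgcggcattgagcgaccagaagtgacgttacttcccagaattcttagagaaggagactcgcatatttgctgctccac
Polr1b: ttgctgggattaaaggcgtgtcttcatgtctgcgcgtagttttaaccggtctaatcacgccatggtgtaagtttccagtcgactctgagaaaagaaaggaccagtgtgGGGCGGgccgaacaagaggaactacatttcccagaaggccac
The GC box stood in both, in the member that changed most and in the one that changed least.

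Box H/ACA snoRNPs guide the conversion of uridine to pseudouridine, and here 2 of 4 core proteins rose. Gar1, needed for the particle's catalysis, had intensities of 402, 468 and 388 in FRG-7dNTBC livers, against 170, 168 and 208 in FRG+NTBC livers, a 2.31-fold rise (log2 1.21 ± 0.14, adjusted p = 0.000698). Nhp2, another core protein, had 1418, 1438 and 1160 after withdrawal, against 666, 617 and 750 under NTBC, a 1.97-fold rise (adjusted p = 0.00173). Nop10, the small protein that ties Nhp2 to the enzyme, did not pass at its brightest probe set, with 3717, 4211 and 3566 in FRG-7dNTBC livers, against 2684, 2937 and 3104 in FRG+NTBC livers. The groups did not overlap, at a log2 fold change of 0.40 ± 0.13 and an adjusted p of 0.0521. Dkc1, dyskerin, the pseudouridine synthase itself, overlapped between the groups. Its values were 428, 455 and 699 after withdrawal, against 495, 568 and 690 under NTBC (log2 -0.17 ± 0.22, adjusted p = 0.599).

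The catalytic subunits of RNA polymerase I, which transcribe the precursor RNA, did not pass. Polr1a, the largest subunit, had 189, 172 and 162 in FRG-7dNTBC livers, against 167, 140 and 144 in FRG+NTBC livers (log2 0.22 ± 0.13, adjusted p = 0.258). Polr1b, the other large subunit, had 75.6, 87.4 and 78.8 after withdrawal, against 70.5, 85.6 and 90.5 under NTBC (log2 -0.02 ± 0.14, adjusted p = 0.92). Both genes overlapped between the groups.

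The small subunit processome is the large complex that forms on the nascent precursor RNA and carries out the first cuts towards the small subunit. Of its 7 listed factors, 4 rose. Wdr75, of the subcomplex that binds the precursor first, had 347, 333 and 428 in FRG-7dNTBC livers, against 133, 128 and 137 in FRG+NTBC livers. This 2.76-fold rise (log2 1.47 ± 0.14, adjusted p = 0.000256) was the third largest among the 37 members. Wdr43, of the same subcomplex, had 644, 626 and 815 after withdrawal, against 404, 402 and 422 under NTBC, a 1.69-fold rise (adjusted p = 0.00531). Heatr1, also of that subcomplex, had 512, 335 and 617 in FRG-7dNTBC livers, against 372, 304 and 355 in FRG+NTBC livers. Its groups overlapped through mouse 2 (log2 0.47 ± 0.22, adjusted p = 0.16), and without FRG-7dNTBC mouse 2 the log2 fold change was 0.71 with an adjusted p of 0.0149.

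Among the other processome factors, Nop14, needed for making the small subunit RNA, had 402, 393 and 282 in FRG-7dNTBC livers, against 165, 140 and 137 in FRG+NTBC livers, a 2.41-fold rise (log2 1.27 ± 0.17, adjusted p = 0.00124). Utp20, a long scaffold protein, had 296, 267 and 288 after withdrawal, against 231, 185 and 187 under NTBC, a 1.42-fold rise (adjusted p = 0.0265). Utp20 had the smallest change of those called, and its call was lost without FRG+NTBC mouse 2 (adjusted p = 0.0984) or 3 (0.0814) and without FRG-7dNTBC mouse 1 (0.0907) or 3 (0.0533). The Utp20 call was also lost with arrays scaled to one 75th percentile (log2 0.37, 0.0877) or quantile normalized again (log2 0.33, 0.154). Rrp9, a protein of the U3 snoRNP, had 326, 258 and 241 after withdrawal, against 247, 256 and 205 under NTBC (log2 0.21 ± 0.16, adjusted p = 0.365). Utp14a, whose yeast relative activates a helicase of the processome, had 265, 237 and 317 after withdrawal, against 241, 338 and 278 under NTBC (log2 -0.06 ± 0.17, adjusted p = 0.826). Neither of these separated the groups.

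All 4 factors of late small subunit maturation rose. Ltv1, which sits on the nearly finished small subunit, had 428, 534 and 478 in FRG-7dNTBC livers, against 164, 170 and 229 in FRG+NTBC livers, a 2.57-fold rise (log2 1.36 ± 0.17, adjusted p = 0.000803). Nob1, the endonuclease that makes the last cut in the small subunit RNA, had 298, 324 and 290 after withdrawal, against 133, 175 and 177 under NTBC (log2 0.92 ± 0.15, adjusted p = 0.0029). Rrp12, an export factor of preribosomes, had 74, 109 and 88 after withdrawal, against 37, 44.9 and 54.2 under NTBC (log2 0.99 ± 0.19, adjusted p = 0.00675). Tsr1, which occupies late small subunit precursors, was uneven among mice. It had 505, 452 and 1031 in FRG-7dNTBC livers, against 307, 261 and 311 in FRG+NTBC livers (log2 1.08 ± 0.29, adjusted p = 0.0266). The Tsr1 call was lost without any 1 of FRG+NTBC mice 1, 2 or 3 (adjusted p = 0.0681, 0.0972 and 0.0646) and with arrays quantile normalized again (0.0683).

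The PeBoW complex, named for Pes1, Bop1 and Wdr12, is needed for cutting the large subunit RNA, and all 3 subunits rose by similar amounts. Wdr12 had 333, 313 and 385 in FRG-7dNTBC livers, against 170, 162 and 170 in FRG+NTBC livers (log2 1.03 ± 0.13, adjusted p = 0.000822). Pes1 had 317, 338 and 294 after withdrawal, against 167, 174 and 195 under NTBC (log2 0.83 ± 0.13, adjusted p = 0.0022). Bop1 had 345, 443 and 294 after withdrawal, against 155, 208 and 239 under NTBC (log2 0.85 ± 0.21, adjusted p = 0.0185). None of the 3 overlapped between the groups. The Bop1 call was lost without FRG+NTBC mouse 1 (adjusted p = 0.0561) or 2 (0.0551) or without FRG-7dNTBC mouse 1 (0.0553).

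Large subunit assembly was the largest role on the list, and 8 of its 9 genes rose, with a median log2 fold change of 1.13. Ebna1bp2, a nucleolar scaffold of early large subunit precursors, had 340, 362 and 263 in FRG-7dNTBC livers, against 115, 86.2 and 103 in FRG+NTBC livers. It rose 3.17-fold (log2 1.66 ± 0.17, adjusted p = 0.000392), second to Nop58 among the members. Rrs1, which binds it in yeast, had 955, 885 and 1261 after withdrawal, against 388, 410 and 428 under NTBC, a 2.5-fold rise (adjusted p = 0.000713). Noc3l had 191, 148 and 162 after withdrawal, against 76.1, 84.5 and 59.7 under NTBC (log2 1.19 ± 0.17, adjusted p = 0.00157). In yeast, its relative moves precursors through the nucleus together with that of Noc2l, which here had 223, 169 and 237 in FRG-7dNTBC livers, against 124, 94.3 and 112 in FRG+NTBC livers (log2 0.92 ± 0.17, adjusted p = 0.00554).

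Ppan, another assembly factor of the large subunit, had 419, 338 and 419 after withdrawal, against 186, 184 and 165 under NTBC, a 2.19-fold rise (adjusted p = 0.000775). Gnl3, nucleostemin, a nucleolar GTPase, had 1193, 1067 and 1499 after withdrawal, against 729, 613 and 530 under NTBC, a 2.0-fold rise (adjusted p = 0.00419). Both had their groups apart. Nop16 had 508, 553 and 296 in FRG-7dNTBC livers, against 144, 204 and 242 in FRG+NTBC livers (log2 1.18 ± 0.28, adjusted p = 0.0147), with mouse 3 the lowest of the withdrawn mice. Nop2, a cytosine methyltransferase of the large subunit RNA, had 452, 331 and 481 after withdrawal, against 313, 186 and 204 under NTBC (log2 0.87 ± 0.23, adjusted p = 0.0249). These were among the least even members. The Nop16 call was lost without FRG+NTBC mouse 1 (adjusted p = 0.0514) or FRG-7dNTBC mouse 1 (0.0604). The Nop2 call was lost without FRG+NTBC mouse 2 (0.0958) or 3 (0.0832) and without FRG-7dNTBC mouse 1 (0.0874) or 3 (0.0535). With arrays quantile normalized again the Nop2 call was lost too (0.0798). Rrp1b, the exception in this role, had 128, 107 and 164 in FRG-7dNTBC livers, against 160, 133 and 138 in FRG+NTBC livers (log2 -0.13 ± 0.18, adjusted p = 0.626).

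Of 5 other nucleolar proteins, 4 rose. Nolc1, a chaperone of snoRNPs, had 396, 416 and 284 in FRG-7dNTBC livers, against 138, 141 and 160 in FRG+NTBC livers, a 2.47-fold rise (log2 1.30 ± 0.17, adjusted p = 0.00108). Nucleolin, encoded by Ncl, had 2369, 2557 and 2574 after withdrawal, against 1607, 1201 and 1226 under NTBC, a 1.87-fold rise (adjusted p = 0.00296). Nucleophosmin, encoded by Npm1, had 1380, 1795 and 1618 after withdrawal, against 929, 832 and 838 under NTBC, a 1.84-fold rise (adjusted p = 0.00263). These are the abundant multifunctional proteins of the nucleolus. Ddx21, an RNA helicase, had 206, 234 and 276 after withdrawal, against 103, 128 and 149 under NTBC, a 1.9-fold rise (adjusted p = 0.00635). Mybbp1a, a nucleolar protein that also binds MYB, did not pass, with 1160, 949 and 1380 in FRG-7dNTBC livers, against 1128, 792 and 815 in FRG+NTBC livers (log2 0.35 ± 0.19, adjusted p = 0.217).

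Most members were read by more than 1 probe set, which gives further readings of the same RNA from the same mice. The 37 members had 74 probe sets, of which 42 were higher and 0 lower, against 14.0% higher among all 45037 probe sets. Of the 37 probe sets that were not a gene's brightest, 12 lay under an intensity of 35.3 and 0 of those were higher, while 14 of the other 25 were. Counting every probe set, 31 of the 37 members had at least 1 that was higher. Second probe sets of Nop56 (log2 1.63), Nhp2 (1.63), Rrs1 (1.95), Fbl (1.43) and Tsr1 (1.41) rose as well.

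Some members gave different answers at different probe sets. Nop10, uncalled at its brightest, had 2106, 2876 and 1278 at its other probe set in FRG-7dNTBC livers, against 508, 576 and 714 in FRG+NTBC livers, a 3.33-fold rise (adjusted p = 0.00297). Mybbp1a (log2 1.02, adjusted p = 0.0106) and Polr1a (log2 0.50, adjusted p = 0.0185) were likewise called higher at another probe set only. Dkc1 and Rrp1b, with log2 fold changes below 0 at the brightest, had 0.30 and 0.43, and 0.49 and 0.23, at their others, none of them called. In the opposite way, Ncl had uncalled probe sets at -0.35 and, under the intensity of 35.3, at -0.33, and Ebna1bp2 had one at -0.11. Dim probe sets of Wdr75 (-0.14), Wdr12 (-0.04), Bop1 (-0.02), Polr1a (-0.06) and Utp14a (0.33) also differed in sign from the brightest. When the probe sets of each gene were averaged, 28 members were higher, with Nop10 and Mybbp1a gained and Ncl (adjusted p = 0.0733) and Wdr12 (0.0566) lost.

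**Figure D2:**
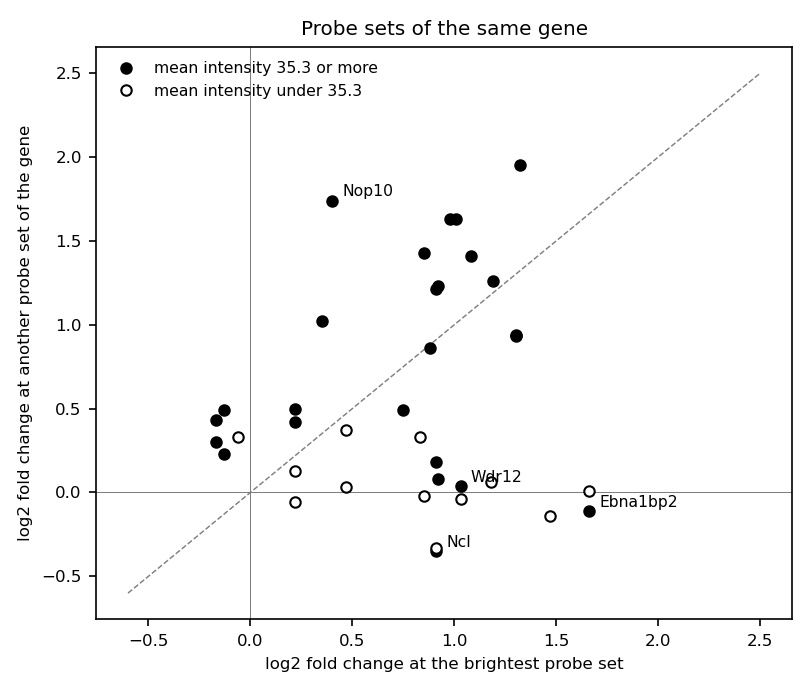
Log2 fold change at a gene's brightest probe set (x axis) against that at each of its other probe sets (y axis), FRG-7dNTBC over FRG+NTBC, for the 25 members with more than 1, where the dashed line is equality. Filled points have a mean intensity of 35.3 or more and open points less, and the 4 labelled genes are filled points that lie furthest from equality, such as Nop10 at 0.40 and 1.74.

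Promoter windows, 250 bases before to 50 bases after the start in RefSeq on GRCm38.p6, were at hand for 32 of the 37 members. Those of Bop1, Npm1, Rrs1, Fbl and Rrp12 were not used here. The letters CACGTG are the E-box bound by MYC with its partner MAX, the same on both strands. They stood in a window of 7 of the 32 members (21.9%) and of 8.91% of 17492 protein-coding genes. A gene with several windows counted once if any of them held the letters. The share was 23.1% in other small subunit factors, 19.0% in other large ones and 17.6% in the other RNA polymerase I genes. It is therefore not particular to the members. Cytosolic ribosomal proteins had 9.84%, mitochondrial ones 7.35%, RNA exosome genes 15.4% and snoRNP assembly factors 0.00%. Among the 7 members with the E-box 6 were higher, at a median log2 fold change of 0.83, and among the 25 without it 17 were higher, at a median of 0.98. This difference was not tested, and a window without the letters says nothing of sites elsewhere. The E-boxes of 4 members are shown in 30-base stretches with CACGTG in capitals. Ltv1 is at chr10:13193092-13193121 on the minus strand, and Tsr1 at chr11:74898092-74898121, Nop2 at chr6:125131811-125131840 and Pes1 at chr11:3963965-3963994 are on the plus strand.
Ltv1: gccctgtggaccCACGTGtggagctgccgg
Tsr1: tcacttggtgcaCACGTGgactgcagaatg
Nop2: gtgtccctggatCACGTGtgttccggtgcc
Pes1: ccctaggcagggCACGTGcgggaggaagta
The flanking bases differed from gene to gene. The other windows with an E-box were those of Wdr43, Utp20 and Mybbp1a. On either strand, CCGGAAG, a site of ETS factors, stood in a window of 34.4% of the members and 12.9% of all these genes. For the GC box GGGCGG the shares were 71.9% and 49.2%. Other lists of the pathway had shares of a similar kind, with CCGGAAG in 45.2% of large and 46.2% of small subunit factors and 41.0% of cytosolic ribosomal proteins, and GGGCGG in 69.0%, 61.5% and 63.9%, so neither is particular to the members. CCAAT stood in 34.4% and 42.3%, and TATAAA in 9.38% and 14.8%. No motif in this search contains another, and a match of letters does not show that a factor binds.

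In the rest of the pathway the shares called higher were below the 75.7% of the members. The snoRNP assembly factors came close at 70%, with a median log2 fold change of 1.0, against 0.92 for the members. Among other large subunit factors 29 of 50 were higher and 1 was lower, at a median log2 fold change of 0.64, and among other small subunit factors 24 of 48 were higher and 0 lower, at a median of 0.56. These shares, 58% and 50%, stand against the 17.4% of all genes that were higher. Rpf1 had the largest rise of the large subunit list (log2 2.28 ± 0.36, adjusted p = 0.00263), with 202, 309 and 97 in FRG-7dNTBC livers, against 38, 36.5 and 38 in FRG+NTBC livers. That rise was seen at 1 of its 3 probe sets, the others being at log2 -0.06 and -0.28 and not called. Ccdc86 (log2 2.07) and Brix1 (1.98) followed. Brix1, an early assembly factor, had 1113, 1038 and 910 after withdrawal, against 278, 226 and 271 under NTBC (adjusted p = 9.31e-05). Its second probe set, at log2 0.40, was not called (adjusted p = 0.186). Mdn1, the giant ATPase that strips factors from the large subunit, rose 1.91-fold (adjusted p = 0.0017), but with its dim probe sets averaged in it was at log2 0.29 and not called (0.0583). Eif6, which keeps the new large subunit from joining the small one too early, had 1136, 2721 and 1152 after withdrawal, against 505, 776 and 776 under NTBC (adjusted p = 0.0365), and this call was lost without any 1 of FRG+NTBC mice 1, 2 or 3 (adjusted p = 0.123, 0.0782 and 0.0695). The 1 gene of this list that fell was Nop53, a large subunit factor that also binds p53. It had 755, 798 and 879 in FRG-7dNTBC livers, against 1758, 1833 and 1618 in FRG+NTBC livers (log2 -1.10 ± 0.12, adjusted p = 0.000574), and it was lower at a second probe set too (log2 -0.74, adjusted p = 0.0146).

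In the small subunit list, Pno1, the partner of Nob1, led with a 3.78-fold rise, at 734, 1160 and 709 in FRG-7dNTBC livers, against 155, 223 and 324 in FRG+NTBC livers (adjusted p = 0.00213). Fcf1, a nuclease-like processome protein, rose 3.23-fold (adjusted p = 0.000368) and Utp18 2.99-fold (adjusted p = 0.000392). Utp4, of the same subcomplex as Wdr75 and Heatr1, rose 2.57-fold (adjusted p = 0.000737). Pdcd11, a scaffold of the processome, was called at 1.58-fold (adjusted p = 0.0278), a call lost without FRG+NTBC mouse 2 (0.0888) or 3 (0.0528) or FRG-7dNTBC mouse 1 (0.0577) or 2 (0.072).

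Among 10 measured snoRNP assembly factors, 7 (70%) were higher and 1 lower, at a median log2 fold change of 1.0. Of all genes, 17.4% were higher and 12.7% lower. Rpap3 (log2 1.99 ± 0.27, adjusted p = 0.0012), a cochaperone of HSP90, Ruvbl1 (log2 1.65 ± 0.15, adjusted p = 0.000223), an ATPase, and Nufip1 (log2 1.49 ± 0.17, adjusted p = 0.000672), rose most. Nufip1 bridges the R2TP complex, a chaperone made of Rpap3, Pih1d1 and the Ruvbl ATPases, to the core snoRNP proteins. Pih1d1 of that complex fell. It had 241, 208 and 260 in FRG-7dNTBC livers, against 592, 516 and 495 in FRG+NTBC livers (log2 -1.18 ± 0.14, adjusted p = 0.000692), and a second probe set was lower as well (log2 -0.65, adjusted p = 0.0263). Of the 16 genes of the RNA exosome and of other factors that trim the precursor, 9 (56.2%) were higher and 0 lower, at a median of 0.66. Mphosph6 (log2 1.48), Mtrex (1.44) and Exosc3 (1.40) led, and Exosc10 (0.88) and Xrn2 (0.89) rose as well. Xrn2, the nuclease that trims from the front end, was even among mice at 385, 407 and 428 after withdrawal, against 221, 220 and 218 under NTBC (adjusted p = 0.000987). The Mtrex call was lost without FRG+NTBC mouse 1 (adjusted p = 0.0718) or 2 (0.087) or FRG-7dNTBC mouse 1 (0.0657) or 2 (0.0607) and when its probe sets were averaged (log2 0.29, 0.169), and that of Exosc10 without FRG+NTBC mouse 2 (0.0926) or 3 (0.0761) or FRG-7dNTBC mouse 1 (0.0826) or 2 (0.0501). The count of this list was 4 without FRG+NTBC mouse 2 and 5 without FRG-7dNTBC mouse 1.

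In the rest of the RNA polymerase I machinery, 7 of 17 genes (41.2%) were higher and 1 lower, against 17.4% and 12.7% of all genes, at a median log2 fold change of 0.51. Rrn3, the initiation factor that makes the polymerase competent to start, had 455, 455 and 370 in FRG-7dNTBC livers, against 89.3, 223 and 208 in FRG+NTBC livers (log2 1.40 ± 0.33, adjusted p = 0.0147). Without FRG-7dNTBC mouse 1 its adjusted p was 0.0559. Of 9 smaller polymerase subunits 4 rose, with Znrd1 at log2 1.72 (adjusted p = 0.000593), Polr1e at 1.38 (0.00206) and Polr1d, shared with RNA polymerase III, at 0.96 (0.00271) and Polr2f, common to the nuclear polymerases, at 0.76 (0.0109). The other 5 did not pass, with Twistnb at 0.46 (0.0897), Polr2h at 0.40 (0.0976), Cd3eap at 0.37 (0.156), Polr2e at 0.19 (0.517) and Polr1c at -0.22 (0.328). When its probe sets were averaged, Polr2f was at log2 0.31 and no longer called (0.0748). Among the promoter factors, Taf1b rose by log2 1.46 (0.0035) and Taf1c by 1.27 (0.00118). Ubtf, the DNA-binding factor that opens ribosomal DNA for transcription, was lower. It had 556, 512 and 549 in FRG-7dNTBC livers, against 729, 695 and 744 in FRG+NTBC livers (log2 -0.42 ± 0.11, adjusted p = 0.027). The groups did not overlap, but the call was narrow. It was lost without FRG+NTBC mouse 1 (adjusted p = 0.0647), 2 (0.0647) or 3 (0.0749) and without FRG-7dNTBC mouse 1 (0.0661) or 2 (0.0753).

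**Figure D3:**
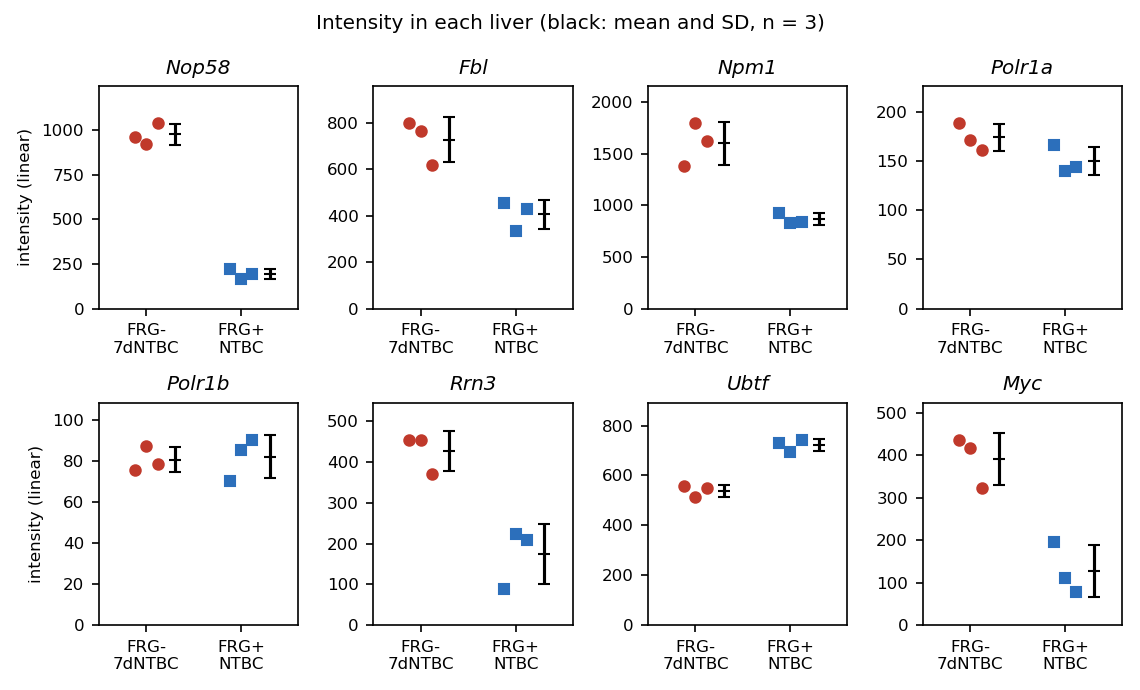
Intensity on a linear scale (y axis) of 8 genes in each of 3 FRG-7dNTBC livers (red circles) and 3 FRG+NTBC livers (blue squares), with the mean and SD in black. Nop58, Fbl, Npm1, Rrn3 and Myc were higher after withdrawal without overlap, Polr1a and Polr1b overlapped, and Ubtf was lower (adjusted p = 0.027).

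The proteins of the cytosolic ribosome, the product of this pathway, had a smaller median change than the factors that assemble it. Of 82 listed genes 46 had a probe set of their own, and 18 of these (39.1%) were higher and 3 lower, against 17.4% and 12.7% of all genes and 25.2% higher among the brighter genes, at a median log2 fold change of 0.23. Many have close pseudogene copies, so single readings are uncertain. Rpl12 (log2 1.27, adjusted p = 0.00876), Rps25 (1.13, 0.00291) and Rplp0 (0.98, 0.0201) rose most. Rplp0 had means of 7196 after withdrawal and 3639 under NTBC. The probe sets of Rpl12 (181 and 71.1), Rps25 (280 and 127) and Rps6 (257 and 452) read far lower. Further probe sets of Rpl12 (2), Rps25 (1) and Rps6 (9) had several gene symbols and were not used. Rps6 (log2 -0.81, adjusted p = 0.0204), Rpl22l1 (-0.83, 0.0358) and Rpl10a (-0.46, 0.0224) fell, and Rpl11 was at -0.04 (adjusted p = 0.841). The number of ribosomal proteins called higher depended on single mice, at 7 without FRG-7dNTBC mouse 1, 10 without mouse 2 of that group, and 10, 8 and 11 without FRG+NTBC mice 1, 2 and 3. Without FRG+NTBC mouse 1, Rps6 had an adjusted p of 0.0585 and Rplp0 of 0.0574. Rps6 also lost its call without FRG+NTBC mouse 3 (0.0504) or FRG-7dNTBC mouse 1 (0.0772) or 2 (0.0515), Rplp0 without FRG-7dNTBC mouse 1 (0.0658), and Rpl10a without FRG+NTBC mouse 2 (0.0856) or 3 (0.0607) or FRG-7dNTBC mouse 1 (0.0811). Rpl22l1 lost its call without FRG+NTBC mouse 1 (0.0599), 2 (0.128) or 3 (0.0811) or FRG-7dNTBC mouse 1 (0.105) or 2 (0.0753).

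**Figure D4:**
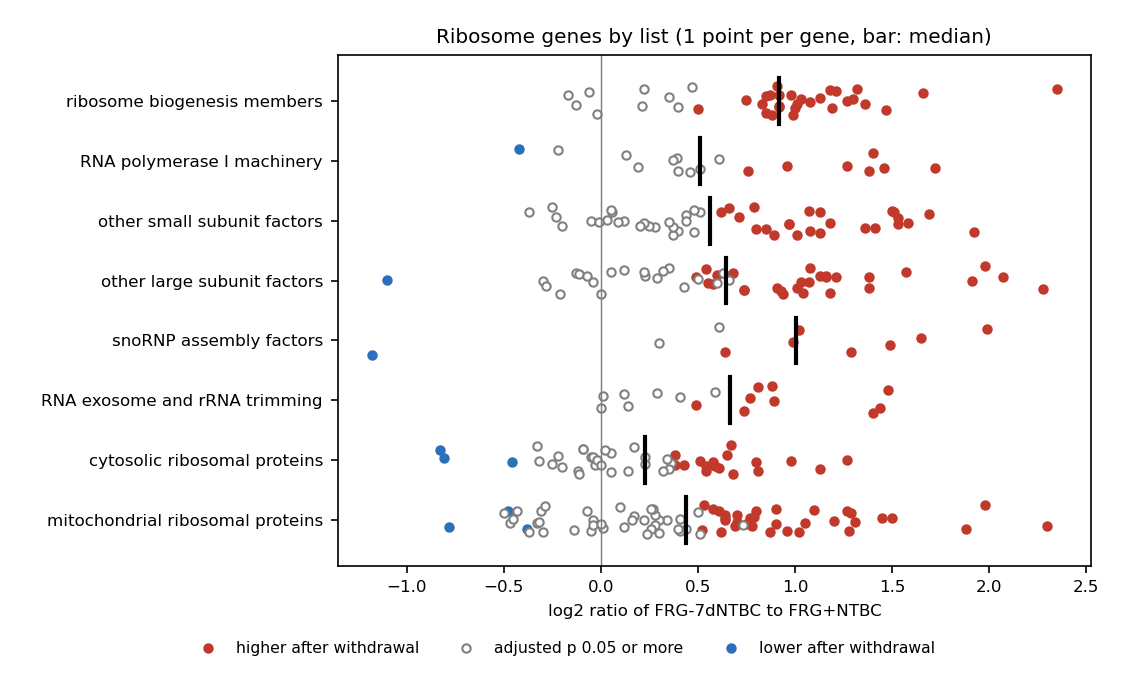
Log2 ratio of FRG-7dNTBC to FRG+NTBC livers (x axis) for each gene of 8 lists (rows), with red points called higher, blue points called lower and open points not called. Black bars are medians, which lie at 0.92 for the 37 ribosome biogenesis genes, 0.23 for cytosolic and 0.44 for mitochondrial ribosomal proteins.

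Myc itself, a known activator of many of these genes, had 437, 416 and 322 in FRG-7dNTBC livers, against 195, 110 and 77.2 in FRG+NTBC livers, a 3.28-fold rise (log2 1.71 ± 0.31, adjusted p = 0.00493). Its partner Max rose 2.17-fold (adjusted p = 0.00372), with 161, 179 and 120 after withdrawal, against 59.7, 67.7 and 83.9 under NTBC. Without variance moderation neither was called, at adjusted p of 0.0729 for Myc and 0.0508 for Max. Mnt (log2 -0.44, adjusted p = 0.0397) and Mxd4 (-0.47, 0.0205), which compete with MYC for MAX, were lower. These calls were narrow as well, since leaving out FRG+NTBC mouse 1 gave adjusted p of 0.11 for Mnt and 0.0528 for Mxd4, and leaving out FRG+NTBC mouse 2 gave 0.123 and 0.0635. Without FRG-7dNTBC mouse 1 or 2 Mnt was at 0.131 and 0.0763, and Mxd4 was at 0.0551 without FRG+NTBC mouse 3 and 0.0548 without FRG-7dNTBC mouse 3. Averaging the probe sets of each gene gave -0.30 for both, with adjusted p of 0.101 for Mnt and 0.155 for Mxd4. In all, 4 of 16 genes of the MYC network and nucleolar stress list (25%) were higher and 2 lower, at a median of -0.05, a share close to the 25.2% of the brighter genes that were higher. The other 2 that rose were Cdkn1a, the cell cycle inhibitor induced by p53, at log2 5.10 ± 0.21 (adjusted p = 1.29e-05), and Mdm2, the ubiquitin ligase of p53 that free ribosomal proteins can bind, at 1.15 ± 0.29 (0.0211). The Mdm2 call was lost without FRG+NTBC mouse 1 (adjusted p = 0.0721) or 2 (0.0659).

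Markers of other cell types were read beside the members, against 17.4% of all genes higher and 12.7% lower. Of 8 hepatocyte markers 0 were higher and 3 lower (Tat, Cps1 and Hnf4a), with a summed intensity of 104627 to 107626 in FRG-7dNTBC livers, against 113621 to 116449 in FRG+NTBC livers, while Alb, the albumin gene, did not pass (adjusted p = 0.62). Macrophage markers were higher in 4 of 8 (sum 1677 to 4719 after withdrawal, against 1661 to 2504 under NTBC), markers of cholangiocytes and progenitor cells in 2 of 7 (1574 to 2394 after withdrawal, against 807 to 1152 under NTBC, most of it Cdh1), sinusoidal endothelial markers in 2 of 6 (1778 to 2191 after withdrawal, against 1119 to 1670 under NTBC), stellate cell markers in 1 of 7 (1023 to 4021 after withdrawal, against 1453 to 1840 under NTBC) and neutrophil markers in 0 of 5 (165 to 256 after withdrawal, against 169 to 230 under NTBC). The summed ranges of macrophage, stellate and neutrophil markers overlapped between the groups. Of the cholangiocyte list Cdh1 (log2 1.26) and Prom1 (1.77) were higher. The gap in this list's sum lay mainly in Cdh1, at 1663, 1296 and 1808 after withdrawal, against 505, 653 and 867 under NTBC. Cd24a (0.86), Sox9 (0.65), Krt7 (-0.45), Krt19 (-0.27) and Epcam (-0.26) were not called. In the paper's RT-qPCR Epcam was higher, while Cd24a, Krt19 and Prom1 did not differ significantly. No marker of these non-parenchymal lists was lower. Of 6 proliferation markers 2 were higher (sum 1858 to 3295 after withdrawal, against 464 to 629 under NTBC), and these were Pcna at log2 3.53 and Mcm2 at 0.59. Most of the sum after withdrawal was Pcna, at 1978, 2876 and 1287, against 214, 134 and 165 under NTBC. Top2a at 0.66, Mki67 at 0.25, Mcm5 at 0.05 and Cdk1 at 0.00 were not called. Of 6 markers of lymphocytes, which these mice lack, 0 passed. The part of these cell types in the rise of the ribosome biogenesis genes was not tested.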

How the data were processed

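The authors scanned 1 Affymetrix mouse genome array per mouse and summarised the scans by Robust Multiarray Analysis, which includes quantile normalization between arrays. Transcriptome Analysis Console is the tool in the submitters' processing notes. Intensity was deposited as linear values, and log2 of the deposited values was used here. Arrays have no read depth, so their number (3 mice a group) limits the precision. The deposited arrays did not share one distribution, as quantile normalization would leave them: the median was 33.1 to 34.3 in FRG-7dNTBC and 35.3 to 36.5 in FRG+NTBC arrays, and the 75th percentile was 142 to 151 in FRG-7dNTBC and 131 to 137 in FRG+NTBC arrays. Correlations of log2 values were 0.98 to 0.99 within FRG-7dNTBC, 0.988 to 0.993 within FRG+NTBC and 0.93 to 0.955 between groups.

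Of 45037 probe sets, 34945 had 1 gene symbol in the array annotation, 932 several and 9160 none, and only the first kind was named. All probe sets were fitted in R 4.3.3 with limma 3.58.1 (lmFit, eBayes), with group as the only term. Two-sided p-values over the whole array had Benjamini-Hochberg adjustment, and a call needed an adjusted p under 0.05. The fit was tried on simulated data with independent noise and few changed probe sets, which does not bear on the calls given here. The mice of each group are separate animals. An exact permutation test of 3 mice against 3 cannot go below p = 0.1, so none is given. Fold changes are FRG-7dNTBC over FRG+NTBC, ± is 1 SE on the log2 scale.

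Every member is named. From each other list, the 3 called genes with the largest absolute change and its best known members were taken; Taf1c, Nop53, Rpl10a, Mrps24, Mrpl11, Mrpl48 and the smaller polymerase subunits were added after their values were seen, as were the named cell type markers. The members and lists were chosen with earlier results of these data known, so the counts are descriptions. Alternatives covered scaling, quantile normalization, dim and cross-hybridizing probe sets, variance moderation, array weights, the replicate block, the probe set rule, a fold threshold and leaving out each mouse.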

Additional observations from a re-analysis of the deposited data

How the results depend on the processing

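Under the 15 alternatives a member could enter, 16 of the 28 members that rose kept their call throughout, all 28 kept a positive log2 fold change, and 6 of the 9 uncalled members stayed uncalled, while 0 members were lower under any setting. The count of members higher was 28 and became 18 without variance moderation and 15 with a fold of at least 2, and it ran from 24 to 29 when each mouse was left out in turn. Their median log2 fold change of 0.92 became 0.79 with arrays scaled to one 75th percentile (which moved the median of all probe sets by -0.13), 0.79 after another quantile normalization, 0.98 with array weights and 0.87 when the probe sets of each gene were averaged, and ran from 0.88 to 0.97 with each mouse left out. Calls lost by 10 members without moderation included Ddx21, Fbl, Noc2l, Nop56 and Rrp12, at adjusted p of 0.0584, 0.0542, 0.0533, 0.0708 and 0.0655. The cause was not tested.

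Without moderation the numbers called higher were 16 large subunit factors, 15 small subunit factors, 3 exosome genes, 4 RNA polymerase I genes, 8 cytosolic and 13 mitochondrial ribosomal proteins and 1 gene of the MYC network, and over all probe sets 3141 were higher and 3336 lower. With a fold of at least 2 they were 17 large subunit factors, 15 small subunit factors, 3 exosome genes, 2 cytosolic and 13 mitochondrial ribosomal proteins, with 3427 probe sets higher and 2305 lower. Scaling to one 75th percentile gave 11 cytosolic ribosomal proteins higher and 9669 probe sets lower, against 6284 higher and 6262 lower in the values reported. Leaving out each mouse gave 4 to 8 exosome genes, 7 to 15 cytosolic and 20 to 38 mitochondrial ribosomal proteins higher, with 4390 to 6815 probe sets higher and 3864 to 6400 lower.

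The replicate numbers of both groups match in the labels. Deviations of same-numbered mice from their group means had r of 0.106, 0.0339 and -0.156 across probe sets. These values lay within the range of differently numbered mice, -0.212 to 0.216. Deviations within a group of 3 arrays cancel out, so these r cannot show whether mice of the same number were matched. With the replicate block, 28 members were higher, at a median of 0.92, with 12 cytosolic ribosomal proteins higher, and Ubtf (adjusted p = 0.0612), Pdcd11 (0.0636), Rpl22l1 (0.0556), Mnt (0.0862) and Mrpl48 (0.0858) were no longer called.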

Other observations

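The mitochondrial ribosome, which is built in a different compartment from nuclear-encoded proteins, also shifted. Of 75 measured mitochondrial ribosomal proteins 34 were higher and 3 lower, at a median log2 fold change of 0.44, against 17.4% of all genes higher and 12.7% lower. The count of 34 was 20 without FRG+NTBC mouse 2 and 21 without FRG-7dNTBC mouse 1. Mrpl1 had intensities of 501, 729 and 416 in FRG-7dNTBC livers, against 163, 67.7 and 115 in FRG+NTBC livers (log2 2.30 ± 0.33, limma adjusted p = 0.0016), but its second probe set was at 0.24 and not called. Mrps22 had 976, 1314 and 776 after withdrawal, against 284, 208 and 272 under NTBC (log2 1.98 ± 0.21, adjusted p = 0.000479), and Mrpl50 had 838, 1090 and 617 after withdrawal, against 256, 194 and 229 under NTBC (log2 1.88 ± 0.22, adjusted p = 0.000623). In all 3 genes mouse 2 was the highest and mouse 3 the lowest of the FRG-7dNTBC mice. Mrpl12, which also binds the mitochondrial RNA polymerase, was not called (log2 -0.37 ± 0.18, adjusted p = 0.162), and without FRG+NTBC mouse 1 it was lower (adjusted p = 0.0303). The 3 genes that were lower were Mrps24 (log2 -0.78), Mrpl11 (-0.48) and Mrpl48 (-0.38), and without probe sets of the kinds that can cross-hybridize Mrpl11 was at 0.48 and Mrpl48 at 0.18, neither called. A second probe set of Mrps24 was at 0.06 and not called, and both of its probe sets are of such a kind. Calls of Mrpl11 and Mrpl48 were also lost without any 1 of FRG+NTBC mice 1, 2 or 3 or FRG-7dNTBC mice 1 or 2, at adjusted p of 0.0698 to 0.108.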
